A study of Drosophila melanogaster with 12 samples.

Results

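The Hi-C libraries of PnM cells depleted of Topoisomerase II (TopII) were compared with the mock libraries of the same experiment, 2 biological replicates in each group. They were chosen by their labels and are 4 of the 8 Hi-C libraries and of the 12 samples in the series. PnM is a diploid male line of Drosophila melanogaster, grown from 1 clone, whose parents came from 2 inbred strains, so that sequence variants assign a read to the maternal or the paternal homolog. For TopII RNAi, double-stranded RNA (30 µg) was given on the first and the third day with calcium phosphate. Mock cells received deionized water in place of RNA, and both groups were harvested on day 4, fixed in 1% formaldehyde for 10 min and cut with DpnII. The Hi-C pairs carry no expression values, so the loss of the targeted message could not be checked here. The study measured it by quantitative PCR, reported reduced TopII mRNA in PnM cells, and fixed cells for Hi-C after that check. Mock cells carried no control RNA.

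TopII passes one DNA duplex through a break in another, which removes supercoils and untangles linked chromosomes, and it is a major protein of mitotic chromosomes. In flies, homologous chromosomes also lie side by side in somatic cells, and TopII is among the proteins known to promote this pairing in cultured cells. Hi-C counts ligation products between loci that were near each other in the nucleus. A pair within an arm on the same homolog is called cis, and a pair between the maternal and the paternal copy of an arm is called thom. Contacts between the left and right arm of a chromosome are called inter-arm here, and contacts between chromosomes 2 and 3 are called thet. The frequency of cis contacts falls as the separation of the loci grows, and the shape of that fall is the usual description of how a chromosome is folded at each length scale.

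The pair lists held 11038225 and 12077016 pairs for mock and 11635751 and 11340208 for TopII RNAi. Pairs on the autosomal arms 2L, 2R, 3L and 3R were used, since X is single in male cells. After pairs within an arm under 1 kb were left out, 4757913 and 5259717 pairs were counted in mock and 4956232 and 5106105 in TopII RNAi. The share of all pairs with a side on X was 39.0% and 39.1% in mock, and 40.2% and 38.8% in TopII RNAi. Replicate 1 of TopII RNAi was thus the highest and replicate 2 the lowest of the 4. By the names of the read files in the file headers, both mock libraries came from a lane numbered 1 and both TopII RNAi libraries from a lane numbered 2, so lane and treatment cannot be told apart in this comparison. Both libraries of the other knockdown, Slmb RNAi, also came from a lane numbered 2, but the read files of mock and Slmb RNAi share a prefix that those of TopII RNAi lack. The same lane number thus does not show a shared lane or run, and by the study's methods each treatment took 1 lane. With 2 libraries against 2, the exact permutation test has 6 splits and its smallest two-sided p is 0.333, which is the value of every comparison below whose groups do not overlap and which has no other test.

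The cis share of pairs was higher, and the share between the arms of a chromosome lower, in both TopII RNAi libraries than in both mock libraries. The cis share was 49.1% and 49.9% in mock, and 51.8% and 52.7% in TopII RNAi, a mean of 49.5% ± 0.53 against 52.2% ± 0.59 (SD, n = 2 each). The groups did not overlap, and the cis share of TopII RNAi was higher by 2.72 percentage points. Inter-arm pairs made up 6.22% and 5.73% of pairs in mock and 5.69% and 4.76% in TopII RNAi. They did not overlap either, although mock replicate 2 and TopII RNAi replicate 1 lay next to each other. The thom share was 36.2% and 36.9% in mock, and 34.1% and 36.8% in TopII RNAi, where replicate 1 was low and replicate 2 lay within the mock range. The thet share was 8.46% and 7.53% in mock, and 8.44% and 5.77% in TopII RNAi. Replicate 1 was thus at the level of mock and replicate 2 below both mock libraries, and without replicate 2 the thet difference turned from -0.89 to 0.45 percentage points. The widest 95% Wilson interval of a share reached 0.045 percentage points to each side (it covers counting error only), far less than the difference in cis share. The inter-arm intervals of mock replicate 2 (5.712% to 5.752%) and TopII RNAi replicate 1 (5.667% to 5.708%) nearly met. Intervals overlapped for the thom share of replicate 2 of both groups and for the thet share of replicate 1 of both groups.

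**Figure D1:**
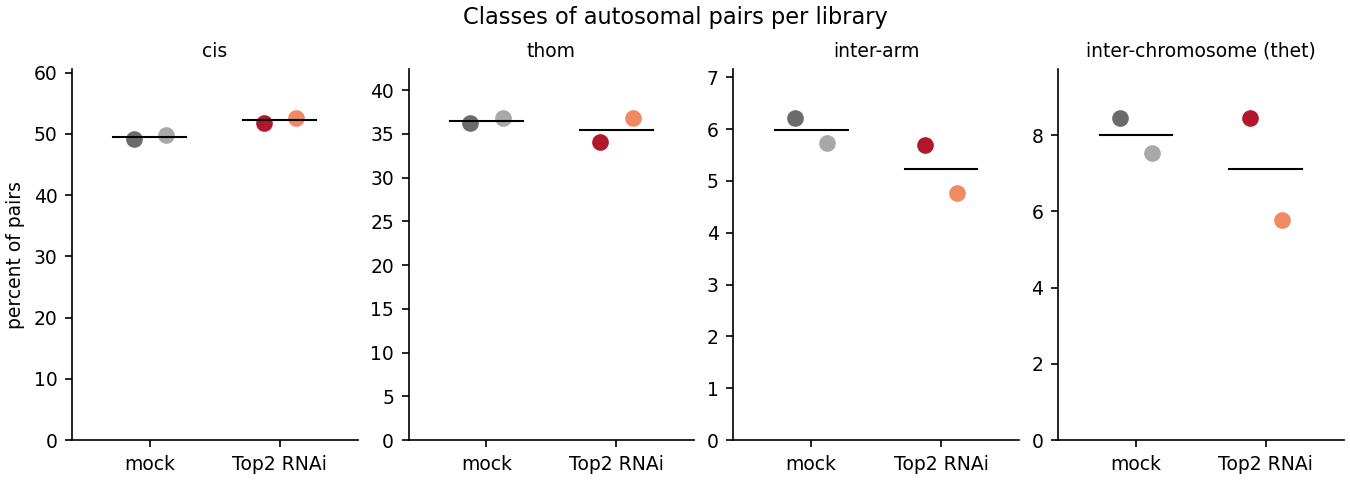
Percent of counted autosomal pairs (vertical axis, from 0) that were cis, thom, inter-arm and inter-chromosome, with 1 point per library, replicate 1 left of replicate 2, and a line at the group mean. Both TopII RNAi points lie above mock for cis and below mock for inter-arm, while the TopII RNAi points for inter-chromosome pairs lie apart at 8.44% and 5.77%.

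The inter-arm share was lower on both chromosomes and for both homolog combinations. Contacts of 2L with 2R were 3.00% and 2.77% of pairs in mock and 2.76% and 2.33% in TopII RNAi. Contacts of 3L with 3R were 3.22% and 2.96% in mock and 2.93% and 2.43% in TopII RNAi. Relative to the mock mean these are differences of -11.9% and -13.3%, and their size rested largely on TopII RNAi replicate 2. Without it the difference went from -0.34 to -0.13 percentage points for 2L with 2R, from -0.41 to -0.16 for 3L with 3R and from -0.75 to -0.29 for all inter-arm pairs. Without TopII RNAi replicate 1 it was -0.56, -0.66 and -1.22. Inter-arm pairs within a homolog (3.17% and 2.93% in mock, 2.90% and 2.44% in TopII RNAi) and between homologs (3.06% and 2.80% in mock, 2.79% and 2.32% in TopII RNAi) were both lower, without overlap. The number of inter-arm pairs between homologs per pair within a homolog was 0.965 and 0.958 in mock and 0.960 and 0.954 in TopII RNAi, so the groups overlapped, and an arm met the other arm of its homolog nearly as often as that of its own chromosome in all 4 libraries. Each of the 4 arm pairs on different chromosomes showed the split of the TopII RNAi libraries. Contacts of 2L with 3L, for example, were 2.01% and 1.80% in mock and 2.05% and 1.37% in TopII RNAi. The number of inter-arm pairs per thet pair was 0.736 and 0.761 in mock and was the lowest of the 4 (0.674) in TopII RNAi replicate 1 and the highest (0.825) in replicate 2.

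Within arms, a larger share of the cis contacts of both TopII RNAi libraries lay at separations between about 42.2 kb and 1.33 Mb, and a smaller share beyond 3.16 Mb. Pairs at 100 kb to 1 Mb made up 24.1% and 24.2% of the cis pairs in mock and 25.3% and 26.6% in TopII RNAi. From 1 to 10 Mb they made up 26.1% and 25.4% in mock and 23.7% and 25.2% in TopII RNAi. Beyond 10 Mb, the scale of a large part of an arm, the share was 4.43% and 4.31% in mock and 3.62% in both TopII RNAi libraries, a difference of -17.3%. In none of these 3 bands did the groups overlap. The difference from 1 to 10 Mb was -1.31 percentage points, but -0.57 without TopII RNAi replicate 1 and -2.05 without replicate 2, and that from 100 kb to 1 Mb was 1.83, but 1.17 without replicate 2. Beyond 10 Mb the gap between groups was larger than the gap between the replicates of either group. In the bands of 1 to 10 kb (14.3% and 14.6% in mock, 14.5% and 13.5% in TopII RNAi) and at 10 to 100 kb (31.0% and 31.5% in mock, 32.8% and 31.1% in TopII RNAi) the groups overlapped, with the TopII RNAi libraries on opposite sides of the mock mean.

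Cis separations were then cut into 35 ranges, 8 per order of magnitude from 1 kb. With the arms pooled, both TopII RNAi libraries lay above both mock libraries in 12 ranges, which ran from 42.2 kb to 1.33 Mb, and below both in 8, of which 7 were the ranges from 3.16 Mb upward. The range that starts at 1 kb held 0.841% and 0.832% of cis pairs in mock and 0.821% and 0.765% in TopII RNAi. The range from 10 kb held 3.21% and 3.25% in mock and 3.32% and 3.05% in TopII RNAi, where the libraries lay on either side of mock. The range from 100 kb held 3.92% and 3.96% in mock and 4.21% and 4.27% in TopII RNAi. The gap upward was largest in the range from 237 kb, with 2.99% and 3.01% in mock and 3.18% and 3.37% in TopII RNAi, a log2 ratio of the group means of 0.13. The range from 1 Mb held 2.54% and 2.48% in mock and 2.56% and 2.76% in TopII RNAi. The range from 10 Mb held 2.53% and 2.46% in mock and 2.05% and 2.10% in TopII RNAi. The gap downward was largest in the range from 13.3 Mb, with 1.49% and 1.46% in mock and 1.22% and 1.20% in TopII RNAi, a log2 ratio of -0.29. The separation at which a TopII RNAi library went from above to below the mock mean was 1.39 Mb in replicate 1 and 2.69 Mb in replicate 2.

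**Figure D2:**
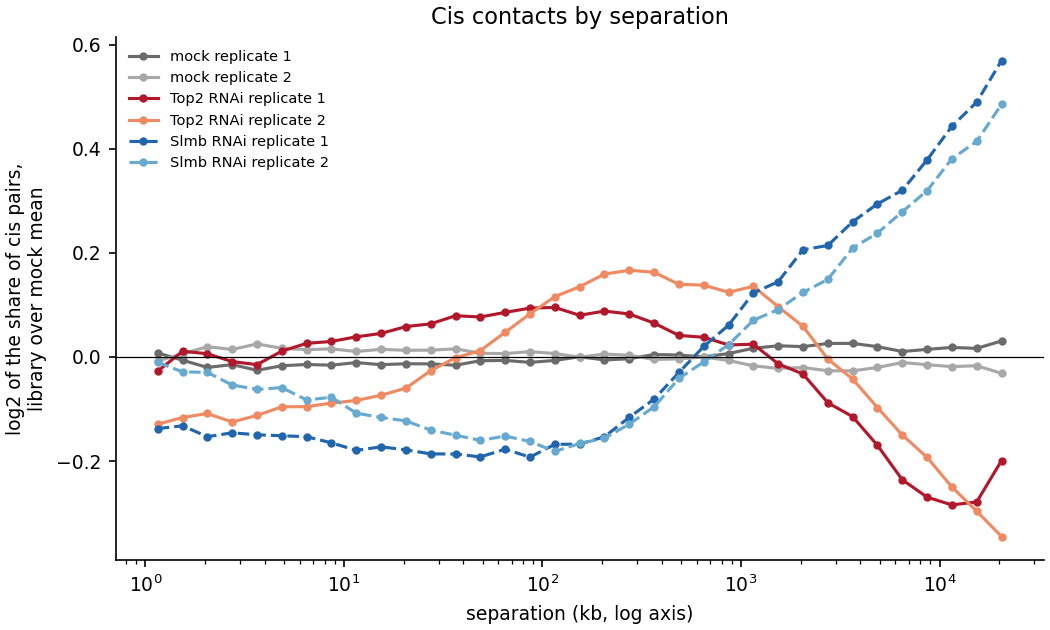
Log2 of the share of a library's cis pairs in each range of separation over the mock mean (vertical axis) against separation in kb (log axis), with 1 line per library for mock, TopII RNAi (labelled Top2 RNAi) and Slmb RNAi. Both TopII RNAi lines rise above mock near 100 kb and drop to between -0.20 and -0.35 beyond 10 Mb, where both Slmb RNAi lines rise.

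The same shares were tested per arm and range with limma, a linear model that shares the estimate of spread across features, with Benjamini-Hochberg adjustment over all 140 combinations. The test called 18 lower in TopII RNAi (12.9% of those tested) and 2 higher (1.43%). All 18 lower ranges started beyond 4 Mb, and 9 of the 12 combinations that start at 10 Mb or more were among them, with 2 or 3 on each arm. On 3R, for example, the range from 7.5 Mb had a log2 difference of -0.23 ± 0.047 (SE, limma adjusted p = 0.00018). Both higher combinations were on 3R, at 100 to 133 kb (0.10 ± 0.031, limma adjusted p = 0.0076) and at 133 to 178 kb (0.13 ± 0.036, limma adjusted p = 0.0052). The median log2 difference at 10 Mb or more was -0.25 on 2L, -0.29 on 2R, -0.28 on 3L and -0.28 on 3R. The number of calls depended on single libraries: it was 0 without mock replicate 1 or without mock replicate 2, 104 without TopII RNAi replicate 1 and 53 without TopII RNAi replicate 2. With a library left out, the spread comes from the group that kept both of its libraries and the lone library is assumed to vary like them, so such counts show how far the calls rest on the close mock pair or the wider TopII RNAi pair, here and below. The ranges of an arm are shares of 1 total and move together, so they are not independent features. The test had 280 degrees of freedom pooled over them, so its p-values treat them as if they were independent.

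The slope of the cis contact frequency on log-log axes gives the same data per pair of loci. For 1 to 10 Mb the slope was -0.64 in both mock libraries and -0.74 and -0.76 in TopII RNAi, a difference of -0.11 between means the largest of the 4 orders of magnitude in size. At 10 to 100 kb it was -0.87 in both mock libraries and -0.85 and -0.82 in TopII RNAi, which is shallower. Below 10 kb it was -0.38 and -0.37 in mock and -0.36 in both TopII RNAi libraries. These 3 slopes did not overlap between groups. At 100 kb to 1 Mb it was -1.23 and -1.24 in mock and -1.26 and -1.24 in TopII RNAi, and the groups overlapped.

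The far cis contacts lay on the other side of mock in Slmb RNAi, the knockdown of a ubiquitin ligase subunit that restrains a condensin protein. Beyond 10 Mb the share of cis pairs was 6.06% and 5.78% in Slmb RNAi, above both mock libraries, where TopII RNAi lay below both. A direct limma test of TopII RNAi against Slmb RNAi, in which batch and treatment cannot be told apart either, called 34 of 140 combinations lower (24.3%) and 46 higher (32.9%) in TopII RNAi. All 34 lower ones were among the 44 combinations at 1 Mb or more, where the median log2 difference was -0.40, and the 46 higher ones lay between 10 kb and 1 Mb. Of the 1099 inter-arm blocks described below, it called 100 (9.1%), 62 of them lower. Untreated cells held 6.18% and 6.37% of their cis pairs beyond 10 Mb, so mock and untreated cells differed from each other by more than TopII RNAi and mock did.

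The number of thom pairs per cis pair (thom/cis) was lower in both TopII RNAi libraries at every order of magnitude of separation, with the smallest difference at the longest separations. At 1 kb or more it was 0.737 and 0.739 in mock and 0.657 and 0.699 in TopII RNAi, a difference of -8.04%. From 1 to 10 kb it was 0.582 and 0.585 in mock and 0.513 and 0.544 in TopII RNAi. At 10 to 100 kb it was 0.718 and 0.721 in mock and 0.629 and 0.674 in TopII RNAi. At 100 kb to 1 Mb it was 0.772 and 0.776 in mock and 0.683 and 0.732 in TopII RNAi. The difference was -9.38%, -9.44% and -8.55% in these 3 bands. From 1 to 10 Mb the ratio was 0.795 and 0.800 in mock and 0.736 and 0.764 in TopII RNAi, a difference of -5.96%. Beyond 10 Mb it was 0.833 and 0.828 in mock and 0.802 and 0.810 in TopII RNAi, a difference of -2.94%. No band overlapped between groups, and replicate 1 was the lower TopII RNAi library in each. At 1 kb or more, the SD was 0.0015 in mock and 0.030 in TopII RNAi, and the difference in the ratio went from -0.059 to -0.038 without TopII RNAi replicate 1. Slmb RNAi had 0.694 and 0.696 there, between the TopII RNAi libraries. Untreated cells had 0.775 and 0.777, so mock itself lay below untreated cells.

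**Figure D3:**
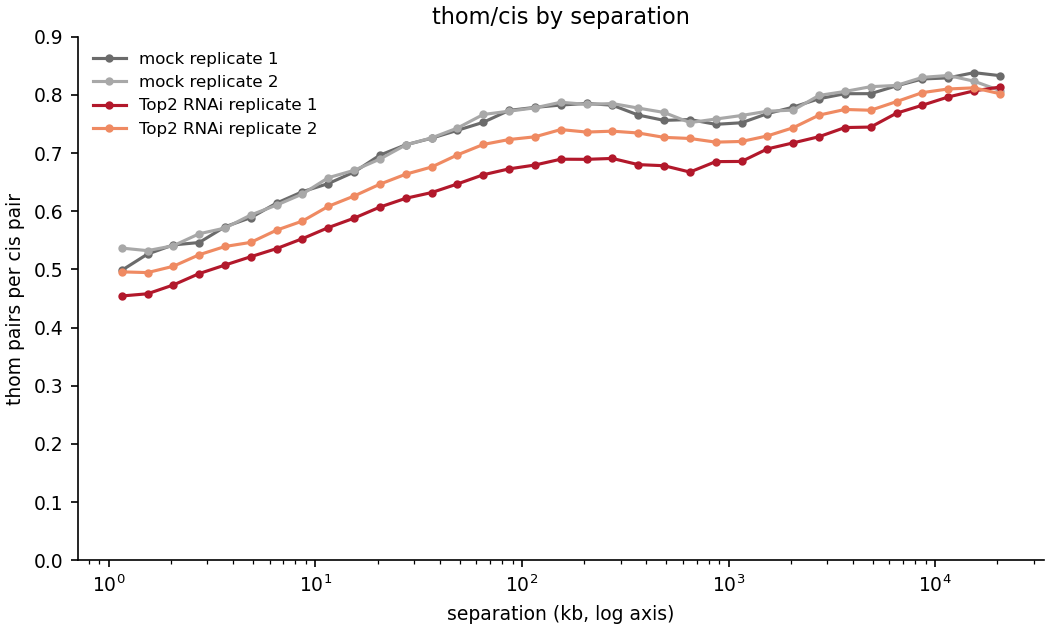
Thom pairs per cis pair (vertical axis, from 0) in each range of separation, in kb on a log axis, with 1 line per mock and TopII RNAi (labelled Top2 RNAi) library. The mock lines nearly coincide, TopII RNAi replicate 2 runs below them and replicate 1 lowest, and the lines draw together at the longest separations.

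Per arm and range, limma called 30 of 140 combinations lower in thom/cis (21.4%) and 0 higher (0%). All 30 had the same limma adjusted p of 0.0493, so they passed the threshold together and narrowly. No combination was higher at an unadjusted p under 0.05 either, where 95 were lower. With the arms pooled, both TopII RNAi libraries lay below both mock libraries in 34 of the 35 ranges, all but the one with the longest separations. In the range that starts at 1 kb the ratio was 0.498 and 0.537 in mock and 0.454 and 0.496 in TopII RNAi. In the range from 10 kb it was 0.648 and 0.658 in mock and 0.572 and 0.609 in TopII RNAi. In the range from 100 kb it was 0.779 and 0.778 in mock and 0.680 and 0.728 in TopII RNAi. In the range from 1 Mb it was 0.752 and 0.765 in mock and 0.686 and 0.720 in TopII RNAi. In the range from 10 Mb it was 0.829 and 0.833 in mock and 0.797 and 0.810 in TopII RNAi. Of the 30 combinations, 15 were on 3L, 7 on 2L, 7 on 2R and 1 on 3R, the arm on which the TopII RNAi replicates lay furthest apart. The count was 0 without either mock library in turn, 107 without TopII RNAi replicate 1 and 131 without TopII RNAi replicate 2, and it was 86 when 3R was left out of the fit.

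Arm 3R is a special case, since some PnM cells hold a pair of maternal copies of most of the arm and no paternal one, which removes thom pairs and adds contacts that count as cis. The thom/cis of 3R was 0.538 and 0.541 in mock and 0.462 and 0.519 in TopII RNAi, while that of 2L was 0.826 and 0.830 in mock and 0.751 and 0.783 in TopII RNAi. On 2R it was 0.830 and 0.832 in mock and 0.753 and 0.787 in TopII RNAi, and on 3L it was 0.815 and 0.815 in mock and 0.726 and 0.763 in TopII RNAi. On each arm both TopII RNAi libraries lay below both mock libraries, with differences of -7.32% on 2L, -7.33% on 2R, -8.68% on 3L and -9.00% on 3R. On 3R the difference in the ratio was -0.049, but -0.020 without TopII RNAi replicate 1 and -0.077 without replicate 2. The maternal share of cis pairs on 3R was 68.8% and 68.6% in mock, 69.0% in TopII RNAi replicate 1 and 66.8% in replicate 2, and on the other arms it lay between 49.8% and 51.1%. Whether a different fraction of such cells had a part in the wider split of the TopII RNAi replicates on 3R was not tested.

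Along the arms, thom/cis was lower in TopII RNAi nearly everywhere. In windows of 200 kb, with pairs at 1 to 100 kb, the log2 change had a median of -0.14 over the 456 windows that held at least 100 thom pairs per library on average. The median change was -0.19 in TopII RNAi replicate 1 and -0.10 in replicate 2, each against the mock mean. Replicate 1 was below the mock mean in 452 windows and replicate 2 in 415. limma called 95 windows lower (20.8%) and 0 higher (0%), with 912 degrees of freedom pooled over the windows. At an unadjusted p under 0.05 it found 214 lower and 0 higher. Both TopII RNAi libraries lay below both mock libraries in 365 of the 456 windows, and in none did both lie above. The called windows were 19 of 113 on 2L, 18 of 104 on 2R, 31 of 108 on 3L and 27 of 131 on 3R. The windows of a library share its overall shift and are not independent: the count was 0 without mock replicate 1 or without mock replicate 2, 8 without TopII RNAi replicate 1 and 359 without TopII RNAi replicate 2. It was also 0 with pairs of mapping quality of at least 20 and 14 with pairs whose sides mapped to the same strand, although the median change stayed at -0.14 in both, with 180 and 162 windows at an unadjusted p under 0.05.

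**Figure D4:**
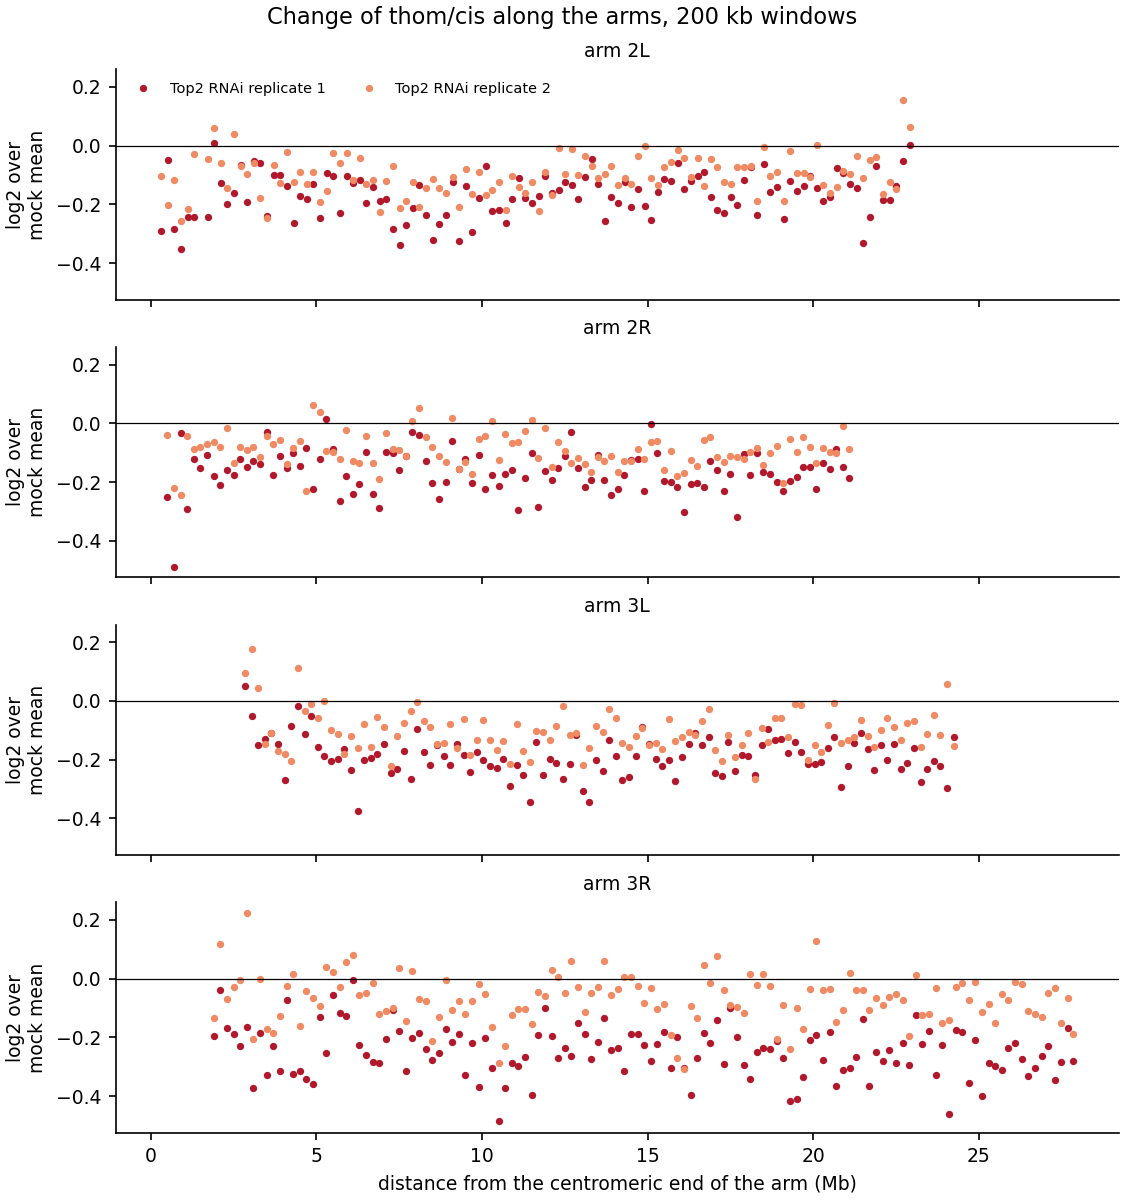
Log2 of thom/cis over the mock mean in windows of 200 kb (vertical axis) by distance from the centromeric end of each arm in Mb, with 1 point per window and TopII RNAi library (labelled Top2 RNAi). Points of both libraries lie mostly below 0 along all 4 arms, with replicate 1 below replicate 2 and the widest split on 3R.

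The largest fall was on 3R at 10400001 to 10600000 (dm3 coordinates), 10.5 Mb from the centromeric end. The window held 1319 and 1509 thom pairs in mock and 1092 and 1226 in TopII RNAi, and its thom/cis was 0.455 and 0.463 in mock and 0.328 and 0.376 in TopII RNAi (log2 change -0.38 ± 0.081 SE, limma adjusted p = 0.0012). The change was -0.29 without TopII RNAi replicate 1 and -0.48 without replicate 2. The window was called in both of those fits, whose spread is that of the close mock pair, and in neither fit that left out a mock library (limma adjusted p = 0.47 and 0.49). The next falls past the threshold were 2R at 600001 to 800000 (-0.35), 3R at 19200001 to 19400000 (-0.33), 3R at 16000001 to 16200000 (-0.31) and 2L at 22000001 to 22200000 (-0.30). None of these 4 was called without TopII RNAi replicate 1 (limma adjusted p = 0.36, 0.056, 0.056 and 0.057) or without either mock library. The change in the 2R window went to -0.22 without TopII RNAi replicate 1, and its call was also lost with no filter on low counts (limma adjusted p = 0.10), at equal depth (0.054) and with separations of 10 to 100 kb (0.10). Of the others, 3R at 16000001 to 16200000 and 2L at 22000001 to 22200000 lost theirs with separations of 1 kb to 1 Mb (limma adjusted p = 0.066 in both), both 3R windows with same-strand pairs (0.069 and 0.070), and 3R at 16000001 to 16200000 at equal depth (0.054). In 2R at 600001 to 800000, a pericentromeric window, thom/cis was low in all libraries, with 0.233 and 0.198 in mock and 0.153 and 0.185 in TopII RNAi. In 2L at 22000001 to 22200000, also near the centromere, it was 0.656 and 0.659 in mock and 0.515 and 0.551 in TopII RNAi. No rise passed the threshold. The highest values were on 3L at 21600001 to 21800000 (0.07), on 3L at 21400001 to 21600000 (0.06) and on 2L at 200001 to 400000 (0.05), and in each of them the groups overlapped.

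When each window was set relative to the median window of its library, no window passed the test. limma then called 0 of 456 lower (0%) and 0 higher (0%), with 24 at an unadjusted p under 0.05, and the values ran from -0.23 to 0.22. Both TopII RNAi libraries then lay below both mock libraries in 72 of the 456 windows and above both in 93. The extremes were the windows already named, 3R at 10400001 to 10600000 at the low end and 3L at 21600001 to 21800000 at the high end. 3R at 10400001 to 10600000 was called when all 8 libraries entered the fit and with same-strand pairs. The change was graded by the thom/cis of untreated cells, which took no part in the comparison. Windows were ranked within their arm by untreated thom/cis and cut into quintiles. The median change was -0.18 in the lowest quintile, -0.16, -0.13 and -0.12 in the next ones and -0.12 in the highest. In TopII RNAi replicate 1 it went from -0.24 in the lowest quintile to -0.16 in the highest, and in replicate 2 from -0.12 to -0.08. Within single arms, Spearman's rho of the change with untreated thom/cis was 0.28 to 0.54 in replicate 1 and 0.28 to 0.33 in replicate 2, across 104 to 131 windows that share their libraries and are not independent. Over all arms it was 0.53 in replicate 1 and 0.07 in replicate 2. For the difference between the mock replicates rho lay between -0.04 and 0.09 on single arms. Slmb RNAi had the same sign of rho on each arm, between 0.13 and 0.37.

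Distance from the centromere graded the change less. The median was -0.15 in the 17 windows within 2 Mb of the centromeric end, -0.12 in the 56 windows at 2 to 5 Mb, and between -0.14 and -0.15 in the 4 bands from 5 Mb to the far end of the arms. The 39 windows in the last 2 Mb before the telomeric end had a median of -0.14. The arm medians were -0.13 on 2L and 2R and -0.15 on 3L and 3R. On 3R the TopII RNAi replicates were -0.24 and -0.07, and on 2L they were -0.16 and -0.11.

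No inter-arm block passed the test of its share of the inter-arm pairs. Among 1099 inter-arm blocks of 1 Mb by 1 Mb, each taken as its share of all inter-arm pairs, limma called 0 lower (0%) and 0 higher (0%), with 36 at an unadjusted p under 0.05. In 161 of the 1099 blocks both TopII RNAi libraries lay below both mock libraries and in 155 above. Both counts were under 1 in 6 of the blocks, the share that a random split of the libraries gives in each direction. The lowest value was a log2 change of the share of -0.38, between 3L at 2000001 to 3000000 and 3R at 5000001 to 6000000, with 194 and 169 pairs in mock and 133 and 112 in TopII RNAi. The highest was between 2L at 1000001 to 2000000 and 2R at 21000001 to 21146708, both near the telomeric ends of chromosome 2, with 103 and 113 pairs in mock and 126 and 146 in TopII RNAi (log2 change of the share 0.52). The next lowest were -0.35 and -0.34, of 2L at 22000001 to 23000000 with 2R at 15000001 to 16000000 and of 3L at 3000001 to 4000000 with 3R at 1000001 to 2000000. The next highest were 0.38, of 3L at 2000001 to 3000000 with 3R at 1000001 to 2000000, and 0.35, of 2L at 20000001 to 21000000 with 2R at 21000001 to 21146708.

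In a nucleus with Rabl polarity, the arms of a chromosome run alongside each other from the centromere, so that loci at like distance from it meet more often. On chromosome 2, loci whose distances differed by under 2 Mb met 1.31 and 1.33 times as often as the mean of the inter-arm map in mock, and 1.28 and 1.39 times in TopII RNAi. On chromosome 3 the values were 1.22 and 1.21 in mock and 1.19 and 1.23 in TopII RNAi. The mock values lay between the TopII RNAi values on both chromosomes, and TopII RNAi replicate 1 was the lowest and replicate 2 the highest library.

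No block between chromosomes passed the test either. Among 2192 blocks between arms of chromosomes 2 and 3, limma called 0 lower (0%) and 0 higher (0%), with 53 at an unadjusted p under 0.05, and without TopII RNAi replicate 1 it called 34. The extreme values were -0.58 between 2R at 1 to 1000000 and 3L at 2000001 to 3000000 (83 and 70 pairs in mock, 66 and 30 in TopII RNAi) and 0.70 between 2L at 12000001 to 13000000 and 3R at 1000001 to 2000000 (26 and 11 pairs in mock, 30 and 20 in TopII RNAi). The next lowest were -0.53 for 2L at 20000001 to 21000000 with 3R at 20000001 to 21000000, and -0.53 for 2L at 14000001 to 15000000 with 3R at 1000001 to 2000000. The next highest were 0.58 and 0.54, for 2L at 6000001 to 7000000 and at 11000001 to 12000000, both with 3R at 1000001 to 2000000. The 3R megabase at 1000001 to 2000000 took part in 4 of these 6 blocks, and its blocks held few pairs.

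Among the telomeric ends of arms on different chromosomes, those of 2R and 3R met the most in all 4 libraries, and those of 2L and 3L met less often than the mean of their arm pair in 3 of the 4. The last 400 kb of 2R and 3R shared 425 and 472 pairs in mock and 378 and 493 in TopII RNAi. That was 14.6 and 16.4 times the mean of the arm pair in mock, and 12.7 and 22.7 times in TopII RNAi. For 2L with 3R the fold was 2.79 and 3.10 in mock and 2.40 and 4.10 in TopII RNAi, from 67 to 83 pairs per library. For 2R with 3L it was 2.38 and 2.65 in mock and 1.81 and 3.33 in TopII RNAi, from 53 to 72 pairs. For 2L with 3L it was 0.553 and 0.860 in mock and 0.278 and 1.26 in TopII RNAi, from 8 to 25 pairs. The 8 pairs of TopII RNAi replicate 1 have an exact 95% Poisson interval of 3.45 to 15.8, which covers counting error only. In each of the 4 arm pairs the mock folds lay between those of TopII RNAi, with replicate 1 lowest and replicate 2 highest. Without replicate 2 every one of these differences in fold was negative (from -0.43 for 2L with 3L to -2.81 for 2R with 3R). With both libraries every one was positive. The mean number of pairs was lower in TopII RNAi in all 4, for example 435.5 against 448.5 for 2R with 3R. The fold divides by the mean of the arm pair, and the thet share was lowest in TopII RNAi replicate 2 (5.77%).

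The contrast between compartments was lower in both TopII RNAi libraries, within and between homologs. Compartments are sets of loci that contact their own kind more than the other, and here they were the outer quintiles of 40 kb bins along an eigenvector of the untreated cis map. On each arm, the leading eigenvector with the strongest Spearman correlation with untreated thom/cis was taken. It was oriented so that its upper end had the higher untreated thom/cis. The compartments were thus chosen with untreated pairing in view. The eigenvector taken had rank 1 on every arm, but rank 2 on 2R and 3R in an alternative with bins of 100 kb. Cis contact within a compartment over contact between compartments was 1.85 and 1.83 in mock and 1.72 in both TopII RNAi libraries, a difference of -6.49%. For thom pairs it was 1.79 and 1.81 in mock and 1.68 and 1.69 in TopII RNAi. Neither overlapped, and for cis the gap between groups was larger than the gap within either. The lower contrast went with contact between the outer quintiles, which was higher (0.665 and 0.670 of the distance-matched mean in mock, 0.696 and 0.698 in TopII RNAi, for cis), and with contact within the lower quintile, which was lower (1.43 in both mock libraries, 1.36 and 1.40 in TopII RNAi). Contact within the upper quintile overlapped between groups (1.06 and 1.05 in mock, 1.06 and 1.03 in TopII RNAi).

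The lower cis contrast appeared at each separation examined. It was 1.83 and 1.79 in mock and 1.69 and 1.68 in TopII RNAi under 1 Mb, 1.89 and 1.90 in mock and 1.77 in both TopII RNAi libraries at 1 to 5 Mb, and 1.67 and 1.69 in mock and 1.54 and 1.63 in TopII RNAi beyond 5 Mb. The last difference was -0.092, but -0.044 without TopII RNAi replicate 1 and -0.14 without replicate 2. Between arms of a chromosome the contrast was 1.41 and 1.43 in mock and 1.31 and 1.44 in TopII RNAi, and between chromosomes it was 1.23 and 1.26 in mock and 1.17 and 1.30 in TopII RNAi. In both of these the TopII RNAi libraries lay on either side of mock. Slmb RNAi also had a lower cis contrast than mock, with 1.74 and 1.76.

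Contact across domain boundaries was slightly higher in both TopII RNAi libraries. Across the 1491 boundaries found in the untreated cis map, contact at a boundary was 0.533 and 0.530 of the contact at bins away from boundaries in mock, and 0.541 and 0.545 in TopII RNAi, for cis. For thom pairs it was 0.540 and 0.543 in mock and 0.557 and 0.560 in TopII RNAi. The groups did not overlap in either, the thom difference (3.12%) was larger than the cis difference (2.11%), and this gap between classes was not tested. Slmb RNAi also lay above both mock libraries, with 0.539 and 0.535 for cis and 0.544 and 0.545 for thom. Untreated cells, whose map defined the boundaries, had 0.501 and 0.511 for cis.

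**Figure D5:**
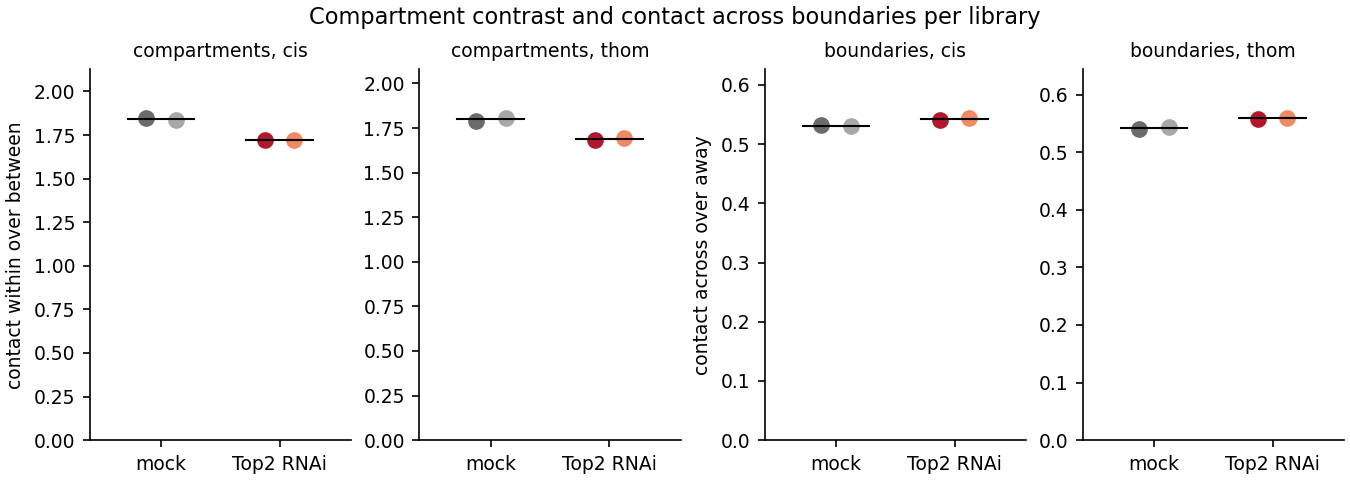
Contact within over contact between compartments for cis and thom pairs, and contact across boundaries over contact away from them for cis and thom pairs (vertical axes, from 0), with 1 point per library and a line at the group mean. Compartment contrast lies lower and boundary contact slightly higher in both TopII RNAi libraries, with values of 1.72 against 1.83 and 1.85 for the cis contrast.

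The TopII RNAi replicates differed from each other more than the mock replicates did. Over 34 single measures of classes, separations, slopes, arm alignment, arm ends, compartments and boundaries, their gap was the larger one in 27, and the ratio of the gaps had a median of 3.56. In 21 of the 34 the groups did not overlap, where a random split of the libraries separates them with a probability of 0.333. Many of the 34 are parts of the same curve or total, so they are not independent. Mock lay between the TopII RNAi libraries in all 8 measures of arm alignment, arm ends and compartment contrast between arms or chromosomes. Technical values also differed. The share of thom pairs that could come from cis fragments assigned to the wrong homolog, estimated from inward-facing pairs under 1 kb, was 0.474% and 0.461% in mock and 0.559% and 0.492% in TopII RNAi (a difference of 0.058 percentage points). Cis pairs under 1 kb made up 28.3% and 27.5% of autosomal pairs in mock and 27.8% and 25.5% in TopII RNAi. Their part in the differences between replicates was not tested.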

How the data were processed

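Hi-C of 2 mock and 2 TopII RNAi libraries was analysed, with 2 untreated libraries for compartments, boundaries and window ranks and 2 Slmb RNAi libraries for comparison. RNA-seq of untreated cells was not used here. Reads had been trimmed by the authors and mapped with bwa mem (0.7.15 in the submitters' processing notes) on a hybrid dm3 genome of both homologs. Pairs with a unique position on 1 homolog were kept, without PCR duplicates. The deposited lists give each pair's positions, strands and mapping quality score, with no normalized values. No reference annotation of that build was used, so windows carry no gene names.

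Pairs were counted with Python 3.11.15 and numpy, and tested with limma 3.58.1 in R 4.3.3 (eBayes with a trend on pair number, Benjamini-Hochberg threshold 0.05, pseudocount 0.5). Windows needed a mean of 100 thom pairs per library, ranges 100 pairs and blocks 20 pairs. Single values used the exact permutation test. Boundaries were minima of the insulation score of a diamond of 5 bins of 4 kb with a prominence over 0.3. The comparisons, features and tests were chosen with earlier results of these data known. Windows and blocks were named as the 5 largest falls and rises past the threshold with no overlap between groups, or as the 3 largest where none passed. Arms, the ranges from 1 kb, 10 kb, 100 kb, 1 Mb and 10 Mb, the ranges of the largest rise and fall, and arm ends were always named. The numbers of replicates name separate samples. limma p-values rest on a spread shared across features, with 912 total degrees of freedom for windows and 280 for cis by separation. For thom/cis by separation they were 6.7, and 210 without 3R. The larger values pool all features, which are not independent, so those p-values do not measure the spread between libraries alone. Alternatives were window and block size, separations, strand, mapping quality, pseudocount, filter, trend, depth, libraries in the fit, replicate block, arm 3R and each library left out.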

Additional observations from a re-analysis of the deposited data

Results flagged for a closer look

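Relative to mock, TopII RNAi and Slmb RNAi moved in opposite directions, with all 4 knockdown libraries on their side of both mock libraries, in 6 measures of cis contact by separation. The share of cis pairs at 100 kb to 1 Mb differed from mock by 1.83 percentage points in TopII RNAi and by -1.57 in Slmb RNAi. At 1 to 10 Mb the differences were -1.31 and 4.35, and beyond 10 Mb they were -0.76 and 1.55. The slope differed by 0.0133 and -0.0162 at 1 to 10 kb, by 0.0383 and -0.0120 at 10 to 100 kb and by -0.110 and 0.0869 at 1 to 10 Mb. Mock and untreated cells overlapped in the share at 1 to 10 Mb only. The slope at 1 to 10 kb was -0.30 in both untreated libraries, and -0.38 and -0.37 in mock. At 1 to 10 Mb it was -0.47 in both untreated libraries, -0.55 in both Slmb RNAi libraries and -0.64 in both mock libraries. For these 6 values the difference between the knockdowns was not tested, and both use the same mock libraries. In the direct limma test without mock libraries, 80 of 140 combinations of arm and range differed between TopII RNAi and Slmb RNAi (24.3% lower and 32.9% higher in TopII RNAi). Of the inter-arm blocks, 100 of 1099 (9.1%) differed. The ranges of an arm are shares of 1 total and are not independent.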

How the results depend on the processing

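Over 64 single values, 43 kept the sign of the difference between TopII RNAi and mock under every alternative run, including each library left out. The counts of limma calls were less stable. The 95 windows called became 244 with all 8 Hi-C libraries in the fit, 59 with windows of 100 kb, 58 with no trend, 56 with separations of 10 to 100 kb, 45 with separations of 1 kb to 1 Mb, 14 with same-strand pairs and 0 with mapping quality of at least 20, and leaving out 1 library gave 0 to 359. The 20 calls of cis by separation became 44 with all 8 libraries (0 to 104 with a library left out), and the 30 of thom/cis by separation became 118, or 57 with same-strand pairs, 77 with mapping quality of at least 20 and 86 without 3R (0 to 131 with a library left out). Other window, pseudocount, filter and depth settings kept these counts within 1.5 times. The centred windows had 1 call in place of 0 with all 8 libraries, with windows of 100 kb and with same-strand pairs. Inter-arm blocks had 0 to 5 calls and inter-chromosome blocks 0 to 34 with a library left out. The cause of these shifts was not tested.

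With a replicate block, windows, cis by separation and thom/cis by separation had 0 calls and the centred windows had 1. The replicate numbers name samples only, and the deviations of same-numbered libraries had a correlation of 0.01 over windows and 0.24 over thom/cis ranges, but -0.47 over cis ranges. There a crossed pairing, added after the data were seen, gave 35 calls.

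With a library left out, these differences changed sign over their range. The thom share ran from -2.46 to 0.30 percentage points, the thet share from -2.23 to 0.45, and the arm pairs from -0.53 to 0.14 (2L with 3L), -0.62 to 0.090 (2L with 3R), -0.50 to 0.13 (2R with 3L) and -0.57 to 0.081 (2R with 3R). Inter-arm pairs per thet pair ran from -0.075 to 0.077. The cis share ran from -1.01 to 0.095 at 1 to 10 kb, from -0.16 to 1.54 at 10 to 100 kb and from -0.18 to 0.088 in the range from 10 kb, and the slope at 100 kb to 1 Mb from -0.025 to 0.00031. Arm alignment ran from -0.039 to 0.064 (chromosome 2) and from -0.022 to 0.020 (chromosome 3, which was 0.010 within 1 Mb). Arm ends ran from -0.43 to 0.55 (2L with 3L), -0.54 to 1.16 (2L with 3R, which was -0.44 with blocks of 200 kb), -0.71 to 0.82 (2R with 3L) and -2.81 to 7.26 (2R with 3R). Compartment contrast ran from -0.11 to 0.020 between arms and from -0.074 to 0.053 between chromosomes, and contact within the upper quintile from -0.025 to 0.0024 (cis) and -0.020 to 0.018 (thom). Among windows not called, 3L at 21600001 ran from -0.036 to 0.18, 3L at 21400001 from -0.051 to 0.18 (-0.0091 with separations of 10 to 100 kb) and 2L at 200001 from -0.052 to 0.16. Depth also limited single blocks: those of 3R at 1000001 to 2000000 rested on as few as 11 pairs in a library.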
